A study of Saccharomyces cerevisiae with 45 samples.

Results

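Budding yeast kept at 37 °C for 40 min was compared with yeast kept at 37 °C for 15 min, to follow what became of the heat response between these times. The 6 arrays compared, 3 at each time, were the ones titled for these times and are part of a series of 45 arrays. Of the 5900 probe sets in the table, 5498 had 1 gene symbol, and these represent 5449 genes, each read by its brightest probe set. All cells were of strain BY4147, mating type a, and carried the alleles his3D1, leu2D0, met15D0 and ura3D0, so the same auxotrophies were shared by every group. They grew in YPD, a rich glucose medium, and were moved to a water bath at 37 °C. The reference was 3 arrays of unshifted cells at 25 °C. All 9 arrays carried the batch label A863, as did the 15 arrays at 1, 3, 5, 7 and 10 min that show the course before 15 min. Whether the 3 arrays of a group came from separate cultures is not in the labels, so the p-values reflect how far single arrays differ and that spread may be technical only.

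When yeast is warmed, the transcription factor Hsf1 induces chaperone genes and the factors Msn2 and Msn4 induce a broad set of protective genes, among them those for trehalose and glycogen, catalase and small heat shock proteins. At the same time genes for ribosome assembly and ribosomal proteins are turned down. At a temperature that the cells can grow at, this programme is known to be transient, and the levels settle near a new steady state while the heat persists.

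Values are log2 intensities, so a difference of 1 is 2-fold. Differences are given as 40 min minus 15 min with the standard error of the limma fit. A gene is said to have risen or fallen between these times when the difference was at least 2-fold with an adjusted p from limma below 0.05, and the same rule was applied to both times against 25 °C. Each array measured many cells together, so fewer cells with a transcript and less of it per cell cannot be told apart. The arrays were normalised to each other, so a change in total messenger RNA per cell is not seen.

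Arrays of a group correlated at 0.997 to 0.999, and the array medians lay between 10.21 and 10.24. The a-cell markers STE2, STE6, MFA1, MFA2, BAR1, AGA2 and ASG7 read 9.43 to 13.81 on the 9 arrays. The alpha markers MF(ALPHA)1 and STE3 read at most 4.9 and 6.5, MF(ALPHA)2 at most 6.81, and SAG1 read 8.44 to 9.23, well above the 5.48 taken as the floor of unspecific signal. Of the genes that the genotype deletes, URA3, LEU2 and MET17 read at most 5.61. HIS3 gave 10.87 to 11.91, and the position of its probes relative to the deletion was not analysed here. Some technical readings differed between the times. The hybridisation control probe sets averaged 11.35 at 15 min and 11.09 at 40 min, and the control probe sets for Bacillus subtilis transcripts averaged 6.88 and 6.31. The 3′ minus 5′ difference of the ACT1 control was 0.58 ± 0.07 (SD, n = 3) and 0.61 ± 0.03. Ribosomal RNA probe sets averaged 12.85 to 13.9 on the arrays at 15 min and 13.81 to 13.84 at 40 min. Their part in the results was not tested.

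Between 15 and 40 min 497 genes rose and 379 fell, which is 9.12% and 6.96% of the 5449 genes tested (16.1% in all). The median rise was 1.84 and the median fall was -1.37. Among the 497, 230 rose by at least 4-fold and 100 by at least 8-fold, against 70 and 17 of the 379. For all 876 the arrays of the groups did not overlap, but this was also true of 81.4% of all genes (37.1% with 40 min higher and 44.3% with 40 min lower). The movement ran mostly against the change present at 15 min. Of the 497 genes that rose, 461 had been below their 25 °C level at 15 min by the same rule, 4 had been above it and 32 had not been called. Of the 379 that fell, 317 had been above it, 4 below it and 58 had not been called.

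At 15 min 836 genes were raised against 25 °C, 15.3% of those tested, and 779 were lowered, 14.3%, together 29.6%. At 40 min 386 genes, 7.08%, were above their 25 °C level and 393, 7.21%, were below it. Both comparisons use the same 25 °C arrays, and the 15 min arrays enter the change at 15 min as well as the later difference, so what follows is a description by gene, without a test across classes. A change was counted as undone when the gene moved back and came within 2-fold of 25 °C. It was partly undone when the gene moved back but stayed at least 2-fold away, overshot when it ended called on the other side of 25 °C, and extended when it moved further out.

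Of the 836 raised genes, 191 were undone (22.8%), 123 partly undone (14.7%), 3 overshot and 4 extended. The other 515 (61.6%) stayed within 2-fold of their 15 min level. Of the 779 lowered genes, 236 were undone (30.3%), 224 partly undone (28.8%), 1 overshot and 4 extended, and 314 (40.3%) stayed within 2-fold of the 15 min level. Staying within 2-fold mostly meant a small change that drifted back. Among these 515 raised genes 474 were nearer to 25 °C at 40 min, and the change at 15 min had been under 4-fold for 441. A change under 4-fold cannot meet the definition of partly undone. The median share of the 15 min change left at 40 min was 50.2% for the raised genes (quartiles 31.3% and 69.2%) and 37.3% for the lowered genes (26% and 53.7%).

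**Figure D1:**
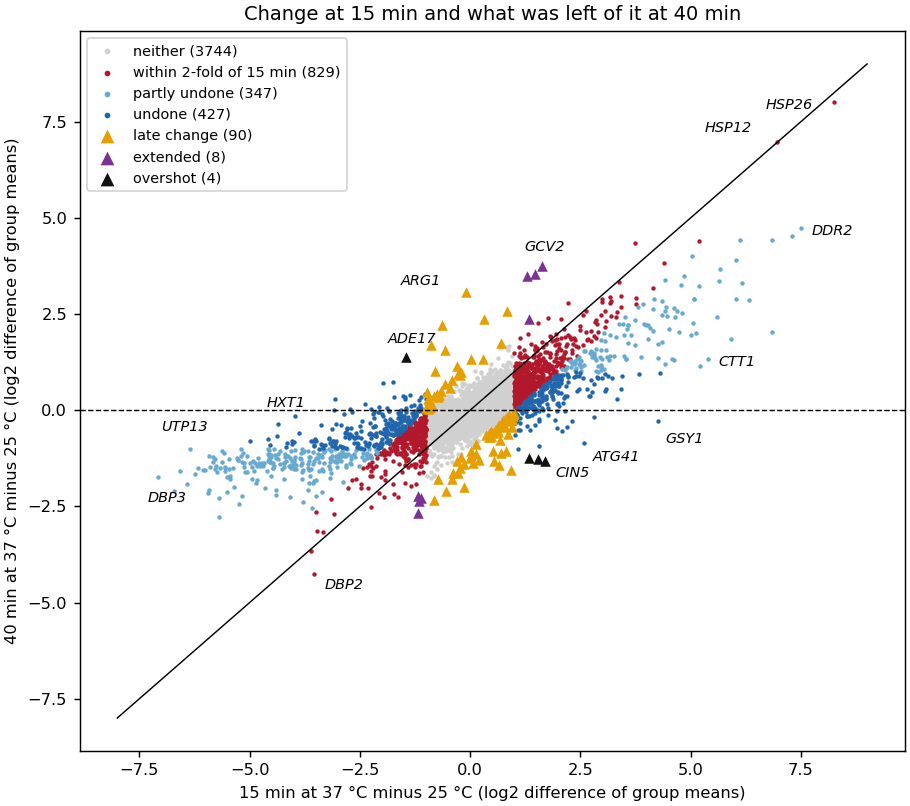
Each point is 1 of 5449 genes, placed by its log2 difference from 25 °C at 15 min (horizontal) and at 40 min (vertical), each a difference of means of 3 arrays. Colours give the class of the change. Points on the diagonal kept their 15 min difference and points on the dashed line were back at the 25 °C level. Most lowered genes lie between these lines, and HSP26 and HSP12 lie near the diagonal at the upper right.

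Among larger changes the raised and lowered genes divided differently in these counts. Of the 254 genes raised at least 4-fold at 15 min, 74 stayed within 2-fold of that level (29.1%), 123 were partly undone and 57 undone. Of the 366 lowered at least 4-fold, 31 stayed within 2-fold (8.47%), 224 were partly undone and 111 undone. The median share left was 53.6% for the raised and 32.6% for the lowered genes. This limit was chosen after the data were seen. The raised and lowered shares were not tested against each other.

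**Figure D2:**
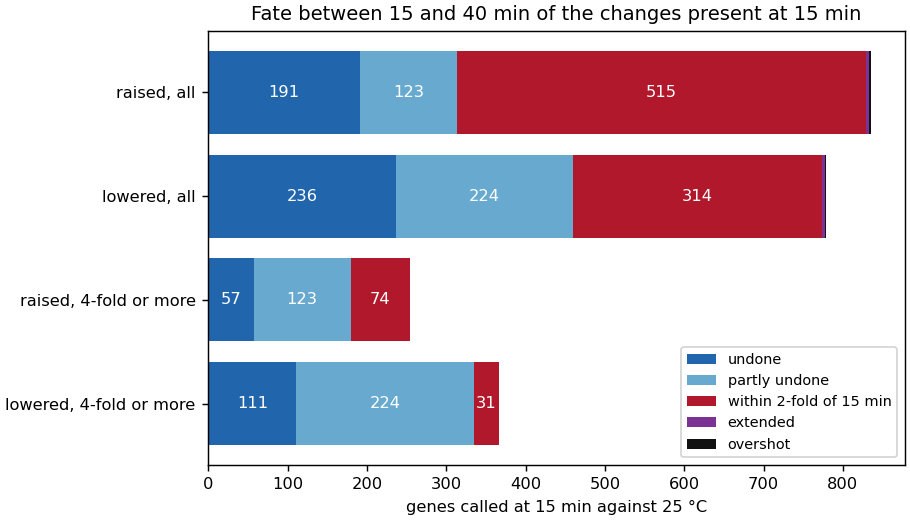
Bars give the number of genes called at 15 min against 25 °C, divided by what became of the change at 40 min, for all raised (836) and lowered (779) genes and for those changed at least 4-fold (254 and 366). The part that stayed within 2-fold of the 15 min level is the longest for all raised genes (515) and short for genes lowered at least 4-fold (31).

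The largest rises belonged to ribosome assembly. UTP13, a subunit of the small subunit processome that folds and cuts the ribosomal RNA precursor, read 5.39, 5.93 and 5.18 at 15 min and 10.82, 10.83 and 10.90 at 40 min. DBP3, an RNA helicase of large subunit assembly, read 5.15, 5.73 and 5.43 and then 10.74, 10.77 and 10.84. In both genes the lowest array at 40 min lay far above the highest at 15 min. The differences were 5.35 ± 0.12 (adjusted p = 1.4e-19) for UTP13 and 5.34 ± 0.12 (adjusted p = 1.89e-19) for DBP3, about 40.8-fold and 40.6-fold. At 25 °C these genes read 11.85 and 12.51, so at 40 min they stood at -1.0 and -1.73 from that level. The mean of DBP3 at 15 min was under the floor of 5.48, so its rise may be understated, and this applies to 14 of the 497 genes that rose.

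The next largest rises were of the same kind. MTR4, the helicase of the nuclear exosome that trims ribosomal RNA precursors, rose by 5.01 ± 0.07 from a 15 min level also under the floor. UTP14, TSR1, UTP25, UTP8, ROK1 and RRP12, which act in making or exporting the small subunit, rose by 4.72, 4.67, 4.60, 4.57, 4.51 and 4.51. KRE33, an RNA acetyltransferase needed for small subunit assembly, rose by 4.59 ± 0.16, and its arrays at 15 min were uneven, at 6.63, 5.56 and 6.15. NOC2, needed for export of the large subunit precursor, rose by 4.52 ± 0.11. AAH1, an adenine deaminase, was the exception in function among the 12 largest rises, at 4.61 ± 0.07.

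Taken as lists, 56 of 60 small subunit processome factors and 69 of 73 large subunit assembly and export factors rose, and 0 of either fell, against 9.12% and 6.96% of all genes. Their median differences were 3.01 and 2.94, beside -0.05 for all genes. At 15 min 58 and 72 of them had been lowered, and 59.2% of all lowered genes rose later. Of all 366 genes lowered at least 4-fold, 30.3% were undone and 61.2% partly undone, so most strongly lowered genes rose. Over all measured members of each list the median difference from 25 °C at 15 min was -4.48 and -4.46. The median members of those lowered in each list had 27.6% and 31.5% of that change left at 40 min. The median for the 366 genes was 32.6%. Return was incomplete for most: 46 small subunit factors and 67 large subunit factors were still called below 25 °C at 40 min. NOP1, the methyltransferase of box C/D small nucleolar particles, went from 13.96 at 25 °C to a mean of 10.13 and then 12.69. NSR1, a nucleolin-like protein, went from 13.52 to 8.67 and then 11.62.

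The 4 small subunit and 4 large subunit factors that did not pass the 2-fold rule included both higher and lower readings at 40 min. DBP2, a helicase of the same family as DBP3 that acts on messenger and ribosomal RNA, read 12.84 on average at 25 °C, 9.45, 8.99 and 9.42 at 15 min, and 8.57, 8.40 and 8.75 at 40 min. All 3 arrays at 40 min lay below those at 15 min, and the difference of -0.71 ± 0.12 was under 2-fold. At 40 min DBP2 stood at -4.27 from 25 °C, the lowest of the 779 lowered genes. KRR1, a pre-ribosome factor with an RNA-binding KH domain, read 9.58, 9.40 and 9.70 at 15 min and 10.04, 9.96 and 10.09 at 40 min. Its arrays did not overlap either, but the difference of 0.47 ± 0.06 was small beside the change of -2.48 at 15 min, of which 81.1% was left. RIO1, a kinase of late small subunit assembly, differed by 0.86 ± 0.15 (adjusted p = 2.95e-05) and had 67.6% left. RSA1, which helps to assemble small nucleolar particles, differed by 0.01 ± 0.09, and TIF6, which keeps the large subunit from joining early, by 0.59 ± 0.05 (adjusted p = 6.66e-10), with 65.2% left.

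The polymerases that make ribosomal and transfer RNA had a list median of 1.22. Of 36 genes for RNA polymerase I and III and their factors, 19 rose (52.8% beside 9.12% of all genes) and 0 fell. At 15 min 24 had been lowered, of which 11 were undone, 8 partly undone and 5 stayed within 2-fold. RPA43, a subunit of RNA polymerase I, read 5.29, 5.48 and 5.37 at 15 min and 9.79, 9.84 and 9.83 at 40 min. The groups lay far apart, with a difference of 4.44 ± 0.05 (adjusted p = 8.18e-24), and the 15 min mean of RPA43 was under the floor. RPA49 rose by 4.04, RPA34 by 3.22 and the largest subunit gene RPA190 by 2.74 ± 0.16, its 15 min arrays spreading from 8.34 to 9.35. The polymerase III subunits RPC34 and RPC37 were lowered at 15 min and differed by 0.65 and 0.55, under 2-fold.

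Of 33 genes for transfer RNA modification 23 rose (69.7% beside 9.12% of all genes) and 0 fell, led by TRM11 (3.58 ± 0.11), TRM1 (3.33 ± 0.12), DUS3 (3.26 ± 0.07) and GCD10 (3.08 ± 0.07), which encode methyltransferases or their subunits and, for DUS3, a dihydrouridine synthase. At 15 min 27 of the 33 genes had been lowered, of which 7 were undone, 16 partly undone and 4 stayed within 2-fold. TRZ1, the enzyme that trims the 3′ end of transfer RNA, went from 10.76 at 25 °C to a mean of 6.37 and then 10.08. DPH1, which acts in making the diphthamide of elongation factor 2, rose by 3.29 ± 0.04. JJJ3, a J-protein that takes part in the same modification, was the only member of the cytosolic Hsp70 and Hsp40 list to rise, by 2.54 ± 0.14.

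Of 38 translation factor genes 14 rose and 1 fell, 36.8% and 2.63% beside 9.12% and 6.96% of all genes. At 15 min 22 had been lowered, of which 12 were undone, 2 partly undone and 8 stayed within 2-fold. TIF4631, the eIF4G scaffold, rose by 2.18 ± 0.10, RLI1, an ATPase that recycles ribosomes, by 2.04 ± 0.10, and the eIF3 subunit NIP1 by 1.67 ± 0.09. PAB1, the poly(A) binding protein, differed by 0.60 ± 0.05, with 61.4% of its change left. The 1 gene that fell, ANB1, is the low-oxygen form of eIF5A, and it is described with the late changes. Among 19 cytosolic aminoacyl-tRNA synthetases 2 rose (10.5%, near the 9.12% of all genes) and 0 fell. These were ALA1 (1.04 ± 0.06) and CDC60 (1.00 ± 0.07), at the limit of 2-fold, and both fell short of it after cyclic loess scaling.

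Of 127 cytosolic ribosomal protein genes 11 rose and 0 fell, a share of 8.66% beside 9.12% of all genes, and with all 45 arrays in the fit 7 rose. Their median difference was 0.26. Only 14 had been lowered at least 2-fold at 15 min, and the median of these had 11.7% of the change left. The members that rose most are named next. Each has a paralogue, and how many of the 127 have one was not counted. RPS9A read 10.24, 10.50 and 10.13 at 15 min and 12.57, 12.52 and 12.55 at 40 min, beside 12.53 at 25 °C. RPL22B read 10.44, 10.44 and 10.29 and then 12.59, 12.54 and 12.56, beside 12.85. For both, the 40 min arrays lay well above those at 15 min and within 2-fold of 25 °C, with differences of 2.26 ± 0.06 and 2.17 ± 0.04. RPL9B rose by 1.90 ± 0.05. Of 70 mitochondrial ribosomal protein genes 0 rose and 0 fell by limma's rule, and they differed by -0.18 to 0.81, with 35 higher and 4 lower at an unadjusted p under 0.05.

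**Figure D3:**
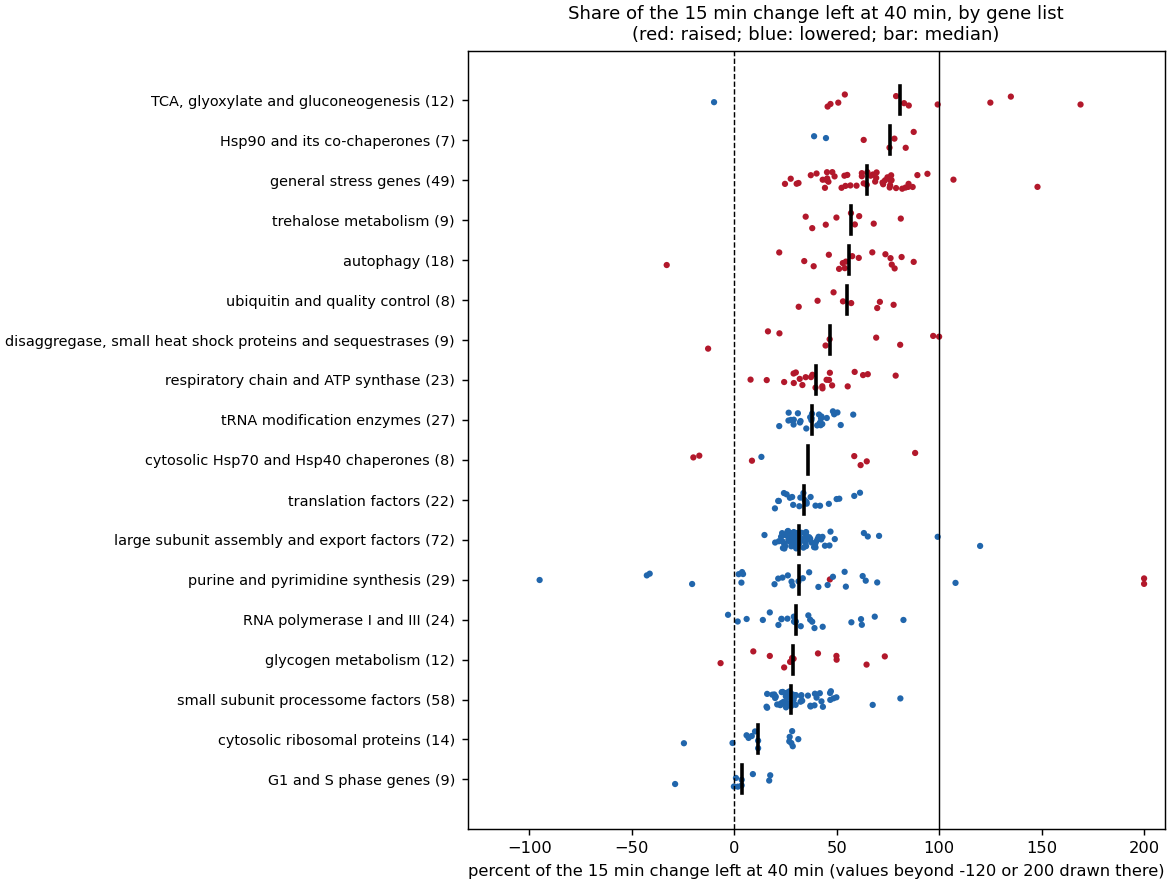
Each point is a gene of 18 lists that was called at 15 min against 25 °C, placed by the percent of that change left at 40 min (0 is back at 25 °C, 100 is the 15 min level, values past the axis are drawn at its edge). Red points were raised and blue points lowered at 15 min, bars are medians, and numbers in brackets count the genes. Genes of the G1 and S phase list and ribosomal protein genes lie near 0, and the medians of general stress and Hsp90 genes lie at 65% and 75.8%.

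Of 40 purine and pyrimidine genes 25 rose (62.5% beside 9.12% of all genes) and 0 fell, with a median difference of 1.44. At 15 min 26 had been lowered, and 59.2% of all lowered genes rose later. HPT1, which salvages hypoxanthine and guanine, read 8.95, 9.04 and 8.97 at 15 min and 12.67, 12.89 and 12.90 at 40 min, beside 12.96 at 25 °C. Its groups were far apart and 3.55% of its change was left. URA7, a CTP synthase, rose by 3.98 ± 0.12 and ended at -1.58 from 25 °C, and the uridine permease gene FUI1 rose by 3.64 ± 0.06. GUA1, the GMP synthase, stood at -1.98 from 25 °C at 15 min and differed by 0.90 ± 0.07, under 2-fold.

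ADE17, which catalyses the last steps of purine synthesis, was the only lowered gene to overshoot. It read a mean of 12.72 at 25 °C, 13.49, 13.37 and 13.38 at 1 min, and 12.70, 12.51 and 12.43 at 10 min. It then read 11.49, 11.03 and 11.28 at 15 min and 14, 14.13 and 14.16 at 40 min. So it read above 25 °C early, before the low level at 15 min. The 25 °C, 15 and 40 min groups did not overlap, with 40 min highest and 15 min lowest. The rise was 2.83 ± 0.09 (adjusted p = 1.59e-17) and left ADE17 1.38 above 25 °C. Of the 3 genes of the purine and pyrimidine list that had been raised at 15 min 2 were extended and 1 stayed within 2-fold, and 4 genes not called at 15 min rose. GCV2, a subunit of the glycine decarboxylase, read 8.90 at 25 °C, then 10.57, 10.56 and 10.50, and then 12.62, 12.67 and 12.70. GCV1, another subunit, was raised by 1.28 at 15 min and by 3.5 at 40 min. MTD1 and SHM2, which encode a methylenetetrahydrofolate dehydrogenase and a serine hydroxymethyltransferase, were not called at 15 min and rose by 2.86 ± 0.04 and 2.14 ± 0.07. In the sulfur list MET6, the methionine synthase, rose by 2.58 ± 0.08 to 1.69 above 25 °C. SAM1, which makes S-adenosylmethionine, had stood at -4.83 from 25 °C and came back to -1.82.

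Of the 14 genes of the arginine list 4 rose and 2 fell, 28.6% and 14.3% beside 9.12% and 6.96% of all genes, with a median difference of 0.23. ARG1, the argininosuccinate synthase, read 8.62, 8.47 and 8.50 at 15 min, close to its 25 °C mean of 8.63, and 11.63, 11.70 and 11.73 at 40 min. The 15 and 40 min arrays did not overlap, and the difference of 3.15 ± 0.07 (adjusted p = 1.81e-19) was the largest rise among genes not called at 15 min. ARG3, the ornithine carbamoyltransferase, was raised by 1.46 at 15 min and by 3.53 at 40 min. ARG8 and CPA1, which act earlier in the pathway, had been lowered and came to 0.07 and 0.01 above 25 °C. Both genes of the list that fell act in arginine breakdown. CAR1, the arginase, fell by 1.82 ± 0.06 to -1.12 from 25 °C, and CAR2, ornithine transaminase, fell by 1.07 ± 0.04. The other 8 did not pass the rule, among them the synthesis genes ARG4, ARG2 and ARG7, which differed by -0.29, 0.17 and 0.29, the transporter gene ORT1 (-0.28) and the regulator gene ARG81 (0.02). GCN4, the activator of amino acid synthesis genes, differed by 0.62 ± 0.05, under 2-fold. In the other amino acid lists, 3 of 13 branched-chain genes rose (23.1%) and 0 fell, and 5 of 29 lysine, histidine and aromatic genes rose (17.2%) and 2 fell (6.9%). The 2 were ARO9 and ARO10, of aromatic amino acid breakdown, which had been raised by 4.04 and 4.84 and kept 54.7% and 72.1% of that.

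Of the 9 cell cycle genes of G1 and S phase that had been lowered at 15 min 8 were undone. Of the 37 genes of this list 10 rose (27% beside 9.12% of all genes) and 0 fell, and the 9 lowered at 15 min had a median of 3.66% of the change left. RNR1, the large subunit of ribonucleotide reductase, read 9.69, 9.54 and 9.47 at 15 min and 12.58, 12.67 and 12.70 at 40 min, beside 12.65 at 25 °C. CLN2, a G1 cyclin, read 8.15, 8.13 and 8 and then 10.66, 10.72 and 10.76, beside 10.76. Both genes lay at their 25 °C level at 40 min, with rises of 3.08 ± 0.08 and 2.62 ± 0.07. The S phase cyclin gene CLB6 rose by 1.83 ± 0.06 and PCL1, a cyclin of the Pho85 kinase, by 1.75 ± 0.10. CLN1 rose by 1.20 ± 0.04, a call that was lost with all 45 arrays in the fit (adjusted p = 0.0649). CLN3 differed by -0.51 ± 0.08.

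Histone genes were not called at 15 min and read lower at 40 min. All 10 had negative differences, with a median of -0.64, and 2 fell at least 2-fold (20% beside 6.96% of all genes). HTB2, a histone H2B gene, read 13.48, 13.60 and 13.45 at 15 min and 12.26, 12.21 and 12.23 at 40 min, without overlap (-1.28 ± 0.04), beside 13.37 at 25 °C. HHT1, a histone H3 gene, was at the limit, at -1.0 ± 0.04, and was not called after median centring. HTA2 and HHF1 are read by probe sets that can also bind related genes.

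Hexose transporter genes moved in both directions. HXT1, a low-affinity glucose transporter, read 8.08, 8.02 and 7.97 at 15 min and 12.04, 12.04 and 12.02 at 40 min, beside 12.38 at 25 °C. The groups were far apart (4.01 ± 0.08), and 7.99% of the fall was left. HXT5, a transporter made by slowly growing cells, had been raised by 6.16 from a 25 °C level under the floor and fell by 2.85 ± 0.09. With all 45 arrays in the limma fit the difference was the same but the call was lost (adjusted p = 0.0575). HXT4 was not called at 15 min and fell by 1.51 ± 0.08 to -2.34 from 25 °C. HXT3 had been lowered and differed by 0.77 ± 0.06. In all 1 of 23 genes of hexose uptake and early glycolysis rose and 5 fell, 4.35% and 21.7% beside 9.12% and 6.96% of all genes.

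**Figure D4:**
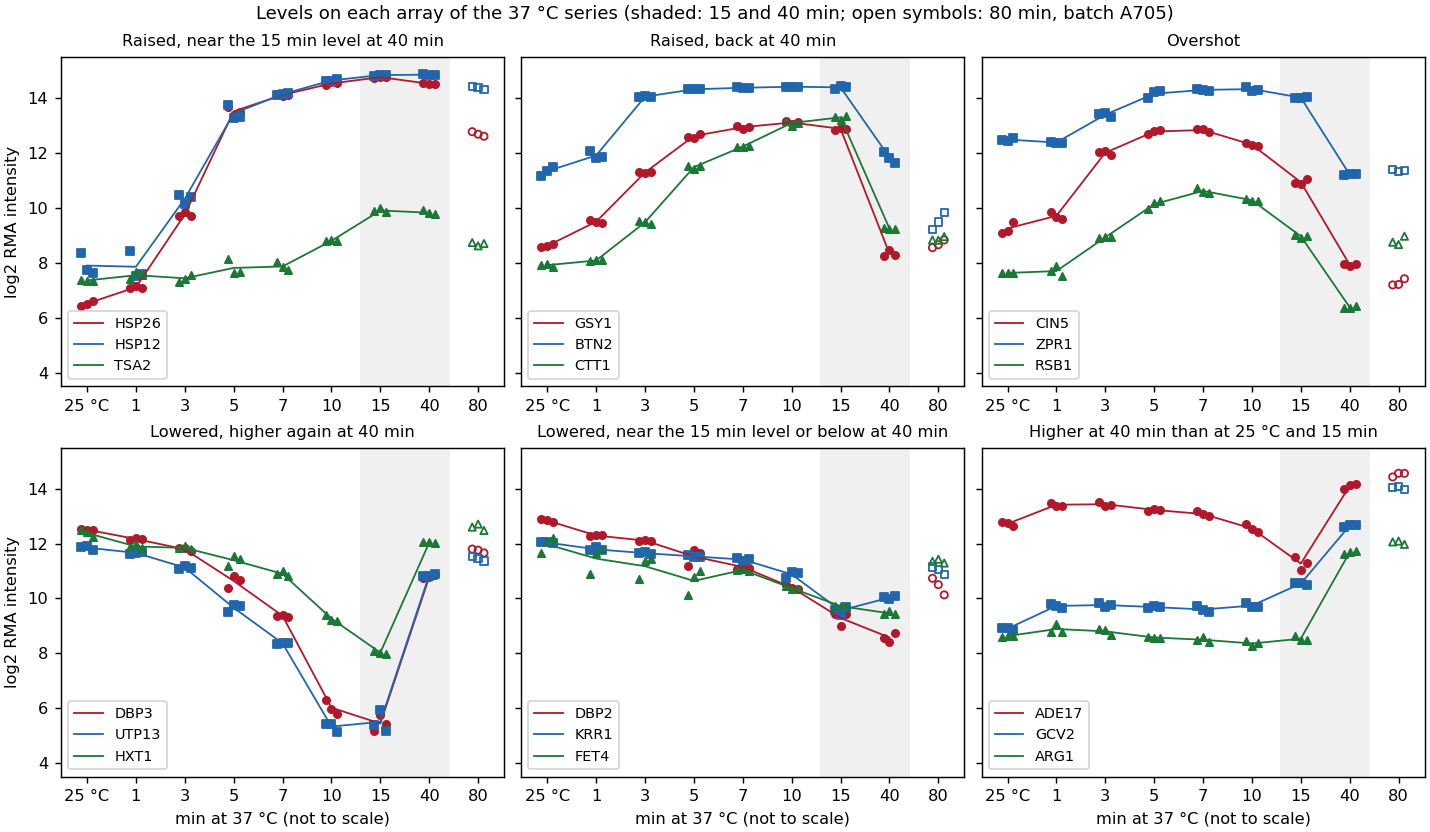
Points are single arrays and lines join the means of 3 arrays, first at 25 °C and then along the 37 °C series from 1 to 40 min, as log2 intensity on equal steps of time that are not to scale. Open symbols are the 3 arrays at 80 min, from batch A705, which were not tested against the others. The panels show HSP12 near 14.86 at 15 and 40 min, the return of GSY1, the drop of CIN5 past its 25 °C level, the rise of DBP3, the further decline of DBP2 and the late rise of ARG1.

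Of the 39 lists that of glycogen metabolism had the lowest median difference. GSY1, a glycogen synthase, read 12.86, 12.92 and 12.87 at 15 min and 8.25, 8.47 and 8.28 at 40 min, beside 8.62 at 25 °C. The arrays at 40 min lay far below those at 15 min, and all 3 lay below the 25 °C mean. The difference of -4.55 ± 0.05 (adjusted p = 6.98e-24), 23.4-fold, was the largest fall of a gene with a standard name. The other synthase gene, GSY2, fell by 2.07 ± 0.06 and kept 50% of its change. All 12 glycogen genes had been raised and 10 fell (83.3% beside 6.96% of all genes and 37.9% of all raised genes). The list median was -2.10. Their median change at 15 min was 3.45, and 29.1% of all genes raised at least 4-fold stayed within 2-fold of 15 min. GLC3, the branching enzyme, fell by 2.56 ± 0.05, GPH1, the phosphorylase, by 2.13 ± 0.06, and GDB1, the debranching enzyme, by 2.06 ± 0.05. GAC1, GIP2 and PIG2, which tether the phosphatase Glc7 to glycogen synthase or resemble such tethers, fell by 2.88, 3.31 and 1.34. IGD1, an inhibitor of the debranching enzyme, fell by 3.20 ± 0.09. The 2 that stayed within 2-fold were GLG2, a glycogenin, and PIG1.

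Of 10 trehalose genes 9 had been raised and 6 fell (60% beside 6.96% of all genes and 37.9% of all raised genes). The list median was -1.19. Of the 9 raised 3 stayed within 2-fold of 15 min, beside 29.1% of all genes raised at least 4-fold. TPS1, trehalose phosphate synthase, read 14.22, 14.18 and 14.17 at 15 min and 12.87, 12.80 and 12.75 at 40 min, without overlap, beside 11.43 at 25 °C. It fell by 1.39 ± 0.04 and kept 49.9% of its change. TPS2, the phosphatase of the pathway, fell by 1.83 ± 0.05, and the regulatory subunit gene TSL1 fell by 1.53 ± 0.06. NTH1, the neutral trehalase gene, fell by 1.25 ± 0.04. PGM2, the phosphoglucomutase that feeds both storage sugars, fell by 2.18 ± 0.06. ATH1, the acid trehalase, kept 81.3%.

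The list of 49 general stress genes, which many stresses raise, was written with earlier results of these data known. All 49 had been raised at 15 min. Later 27 fell (55.1% beside 6.96% of all genes and 37.9% of all raised genes) and 0 rose. The median change of the 49 at 15 min was 3.31. Of all genes raised at least 4-fold 29.1% stayed within 2-fold of 15 min, a smaller share than the 22 of these 49. At 40 min 45 of the 49 were still called above 25 °C. Their median share left was 65%, beside 50.2% for all raised genes. The list held both extremes. CTT1, the cytosolic catalase, read 13.33, 13.21 and 13.37 at 15 min and 9.28, 9.24 and 9.23 at 40 min, beside 7.91 at 25 °C. SPI1, a cell wall protein, read 14.14, 14.22 and 14.16 and then 10.17, 10.14 and 10.04, beside 8.26. They fell 16.6-fold and 16.7-fold, without overlap, and kept 24.8% and 31.4% of their change. RTC3 fell by 3.46 ± 0.08, and CYC7, the low-oxygen form of cytochrome c, fell by 3.14 ± 0.07.

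DDR2, a stress gene with one of the largest changes at 15 min, had been raised by 7.50 and fell by 2.76 ± 0.11, ending 4.74 above 25 °C. SOL4, a homologue of 6-phosphogluconolactonases, fell by 2.75 ± 0.09 and ended 4.54 above. GPM2, a homologue of phosphoglycerate mutase, read 11.40, 11.56 and 11.48 and then 10.80, 10.69 and 10.64. Its arrays did not overlap, but the difference of -0.77 ± 0.11 was small beside a change of 5.18 from 25 °C. NQM1, a transaldolase, differed by -0.57 ± 0.12 and kept 87.1%. YGP1, a secreted glycoprotein, differed by -0.99 ± 0.05, just inside 2-fold. UBI4, the stress-induced polyubiquitin gene, differed by -0.83 ± 0.06 and kept 77.8%.

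Chaperone genes ranged from those near their 15 min level to those back at 25 °C. HSP26, a small heat shock protein, read 14.75, 14.79 and 14.76 at 15 min and 14.56, 14.51 and 14.52 at 40 min, beside 6.51 at 25 °C. HSP12, a small protein that binds membranes, read 14.83, 14.85 and 14.86 and then 14.87, 14.85 and 14.86, beside 7.90. The HSP26 arrays at 40 min lay just below those at 15 min (-0.24 ± 0.06), and the HSP12 arrays overlapped (0.02 ± 0.19, adjusted p = 0.942). The highest level of any gene, that of TDH3, was 15.03 in both groups, so the scale ends close to these values and differences there may be understated. This also applies to HSP42, SSA1 and HSP82, described below, whose 15 min levels were about as high. At 80 min, in batch A705, HSP26 read 12.69 and HSP12 read 14.38.

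The list of disaggregase, small heat shock protein and sequestrase genes also held HSP30, HSP31, SNO4 and HSP150, which its name does not cover. Of its 10 genes 4 fell, HSP30 among them, 40% beside 6.96% of all genes. At 15 min 9 had been raised, and 5 of these stayed within 2-fold of that level. The same was true of 61.6% of all raised genes and 29.1% of those raised at least 4-fold. HSP42, another small heat shock protein, read 14.74, 14.73 and 14.72 at 15 min and 12.40, 12.34 and 12.22 at 40 min, beside 10.22 at 25 °C (-2.41 ± 0.07). BTN2, which sorts misfolded proteins into deposits, read 14.34, 14.45 and 14.40 and then 12.06, 11.84 and 11.64, beside 11.34 (-2.55 ± 0.08). In neither gene did the groups overlap, and BTN2 kept 16.5% of its change and HSP42 46.6%. CUR1, the paralogue of BTN2, fell by 2.60 ± 0.06 to -0.29 from 25 °C. HSP30, a membrane protein that restrains the proton pump, fell from a mean of 13.55 to 9.49 (-4.07 ± 0.07), the fall next in size to that of GSY1 among genes with standard names. HSP104, the disaggregase, had been raised by 2.67 and differed by -0.82 ± 0.04, so that 69.3% was left.

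In the list of 17 cytosolic Hsp70 and Hsp40 genes 7 fell (41.2% beside 6.96% of all genes), 1 rose and the others did not pass the rule. At 15 min 7 had been raised, of which 3 were undone, 3 partly undone and 1 stayed within 2-fold. SSA4, the strictly heat-induced Hsp70, fell by 2.00 ± 0.06 and kept 64.7%. SSA1 read 14.63, 14.83 and 14.69 at 15 min and 14.50, 14.44 and 14.44 at 40 min, a difference of -0.25 ± 0.04, and kept 88.3%. The J-protein genes APJ1 and SIS1 fell by 2.63 ± 0.08 and 1.31 ± 0.03 and the nucleotide exchange factor gene FES1 by 1.83 ± 0.04. At 40 min these 3 stood at -0.44, 0.12 and -0.27 from 25 °C.

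Of 14 genes for Hsp90 and its co-chaperones 5 had been raised at 15 min and 2 lowered, 0 fell afterwards and 3 rose (21.4% beside 9.12% of all genes). At 40 min 4 were called above 25 °C and 1 below it. HSP82, the inducible Hsp90, read 14.75, 14.74 and 14.75 at 15 min and 14.48, 14.42 and 14.42 at 40 min, beside 12.26 at 25 °C. The arrays did not overlap, the difference was -0.31 ± 0.03, and 87.6% of the change was left. These levels lie close to the highest of any gene, 15.03, so the difference of HSP82 may be understated. The co-chaperone genes AHA1, CPR6, STI1 and HCH1 differed by -0.66, -0.43, -0.50 and -0.24 and kept 75.8%, 78.2%, 63.2% and 83.7%. HSP82 and these 4 are the 5 raised members of the list. All 5 stayed within 2-fold of 15 min, as did 61.6% of all raised genes. The 3 that rose were the co-chaperone genes CNS1 (1.40 ± 0.04) and TAH1 (1.17 ± 0.07) and the Hsp90 phosphatase gene PPT1 (1.66 ± 0.09), of which CNS1 and PPT1 had been lowered. The call of PPT1 was lost with all 45 arrays in the fit (adjusted p = 0.107), and that of TAH1 when tested against a 2-fold difference (adjusted p = 0.111).

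In organelles some chaperone genes fell and others stayed. HSP78, the mitochondrial disaggregase, fell by 1.98 ± 0.06 from a change of 4.63, and its partner MDJ1 fell by 1.78 ± 0.05 to 0.37 above 25 °C. HSP10, of the mitochondrial chaperonin, differed by -0.06 ± 0.03 and kept 96%. Of 14 mitochondrial chaperone genes 3 fell (21.4% beside 6.96% of all genes) and 0 rose, the third being MDJ2, at the limit (-1.02 ± 0.11) and not called after cyclic loess scaling. Of 18 genes of folding in the endoplasmic reticulum 1 fell, a share of 5.56% near the 6.96% of all genes. It was ERO1, the oxidase that drives disulfide formation (-1.27 ± 0.04). Of 35 proteasome genes 0 rose and 0 fell by limma's rule, and they differed by -0.27 to 0.26, with 4 higher and 12 lower at an unadjusted p under 0.05. RPN4, the activator of proteasome genes, fell by 1.09 ± 0.06 to -0.08 from 25 °C, a call that was lost when tested against a 2-fold difference (adjusted p = 0.485).

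Of 42 stress and growth regulator genes, 11 fell (26.2% beside 6.96% of all genes) and 4 rose (9.52% beside 9.12%). At 15 min 14 had been raised and 8 lowered. Of the raised, 8 were undone, 1 was partly undone and 5 stayed within 2-fold of 15 min, and of the lowered, 2 were undone, 2 partly undone, 3 stayed and 1 was extended. IRA2, which turns off Ras, fell by 1.90 ± 0.04, YAK1, a kinase opposed by protein kinase A, by 1.83 ± 0.05, and NRG1, a repressor of glucose-repressed genes, by 1.54 ± 0.08. MSN4 fell by 1.22 ± 0.06 to 0.10 above 25 °C, while MSN2 differed by -0.48 ± 0.05 and HSF1 by -0.35 ± 0.04, and neither had been raised 2-fold. TOD6, a repressor of ribosome assembly genes, moved with those genes: it read 10.54 at 25 °C, 4.93, 5.11 and 5.03 at 15 min, under the floor, and 8.26, 8.31 and 8.68 at 40 min (3.39 ± 0.14). Its paralogue DOT6 differed by -0.76 ± 0.06. XBP1, a stress-induced repressor, fell by 2.04 ± 0.10 from a change that began under the floor. LST8, a subunit of the TOR complexes, had been raised by 3.33 and fell by 3.05 ± 0.06, leaving 8.42%.

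Of 41 genes of the respiratory chain and ATP synthase 23 were raised at 15 min, where 15.3% of all genes were. Later 11 fell (26.8% beside 6.96% of all genes) and 1 rose, and the median share left was 39.7%. Of the 23 raised, 8 were undone, 3 partly undone and 12 stayed within 2-fold of 15 min, as did 61.6% of all raised genes. Tested against a 2-fold difference, 5 fell. NDE2 and NDI1, NADH dehydrogenases of mitochondria, fell by 1.48 ± 0.10 and 1.37 ± 0.07, and INH1, the inhibitor of ATP synthase, fell by 1.38 ± 0.09. COX5B, the low-oxygen form of a cytochrome oxidase subunit, differed by -0.72 ± 0.07 and kept 78.8%. Of 27 genes of the citrate and glyoxylate cycles and gluconeogenesis, 11 were raised at 15 min, where 15.3% of all genes were. All 11 stayed within 2-fold of that level, as did 61.6% of all raised genes. In this list 1 gene rose and 1 fell (3.7% each, beside 9.12% and 6.96% of all genes). CIT1, citrate synthase, kept 79%, and PYC1, pyruvate carboxylase, read 1.77 above 25 °C at 15 min and 2.39 above at 40 min. MAE1, the malic enzyme, had been lowered and rose by 3.37 ± 0.09 to 0.30 above 25 °C.

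Of 31 autophagy genes 18 were raised at 15 min, where 15.3% of all genes were, and 6 fell later (19.4% beside 6.96% of all genes). Of the 18 raised, 3 were undone, 3 partly undone and 12 stayed within 2-fold of 15 min, as did 61.6% of all raised genes. ATG41, needed for the supply of Atg9 vesicles, read 13.37, 13.43 and 13.38 at 15 min and 9.98, 10.04 and 9.88 at 40 min, beside 10.81 at 25 °C. All 3 arrays at 40 min lay below the 25 °C mean, but the gap of -0.85 was under 2-fold, so it counted as undone (-3.42 ± 0.09). ATG7 fell by 1.56 ± 0.06, and ATG31, ATG34 and ATG36 kept 87.6%, 78.3% and 73.8%. Of 23 ubiquitin and quality control genes 1 fell (4.35%), the ubiquitin ligase gene HUL4 (-1.32 ± 0.07). Of 28 redox defence genes 2 fell (7.14%, near the 6.96% of all genes), CTA1, described with the extended changes, and SRX1, a sulfiredoxin, whose call was lost with all 45 arrays in the fit (adjusted p = 0.057). TSA2, an inducible peroxiredoxin, read 9.89, 9.99 and 9.84 and then 9.92, 9.80 and 9.76, beside 7.36 at 25 °C, with overlapping arrays and 96.9% left.

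The 3 raised genes that overshot had already been past their highest level by 15 min. CIN5, a transcription factor of salt and drug tolerance, read a mean of 9.25 at 25 °C, 12.84 at 7 min, then 10.90, 10.86 and 11.07 at 15 min and 7.94, 7.89 and 7.95 at 40 min. RSB1, which moves sphingoid long-chain bases, read 7.63, 10.62 at 7 min, then 9.03, 8.90 and 8.97, and then 6.34, 6.36 and 6.44. ZPR1, a zinc finger protein that helps fold elongation factor 1A, read 12.49, 14.33 at 10 min, then 14.02, 14.02 and 14.03, and then 11.18, 11.23 and 11.23. In each gene the 40 min arrays lay below those of 25 °C and of 15 min. The falls were -3.01 ± 0.08, -2.59 ± 0.07 and -2.81 ± 0.05, which left the genes at -1.32, -1.25 and -1.28 from 25 °C. At 80 min, in batch A705, CIN5 read 7.27, RSB1 8.80 and ZPR1 11.36, so RSB1 alone of the 3 read above its 25 °C mean there.

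Changes that grew after 15 min were few. Raised and extended were ARG3, GCV1, GCV2 and YIL014C-A, and lowered and extended were CTA1, PHD1, QDR2 and YHB1, where YIL014C-A was named after its values were seen. YHB1, a flavohemoglobin that detoxifies nitric oxide, read 13.82 at 25 °C, 12.74, 12.44 and 12.70 at 15 min and 11.22, 11.09 and 11.16 at 40 min, a steady descent without overlap (-1.47 ± 0.06). PHD1, a regulator of filamentous growth, fell by a further 1.21 ± 0.06. CTA1, the peroxisomal catalase, went by -1.18 ± 0.10 to a level under the floor, and the calls of CTA1 and QDR2 did not hold after cyclic loess scaling, where 2 genes were lowered and extended.

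Of the 32 late rises, 11 ended called above 25 °C, and of the 58 late falls 23 ended called below it. GSC2, a glucan synthase of the stressed cell wall, read 11.24, 11.19 and 11.20 at 15 min and 12.98, 12.96 and 12.95 at 40 min, beside 10.37 at 25 °C (1.75 ± 0.04). NCA3, of the SUN family of cell wall proteins, rose by 2.05 ± 0.09 and the sulfite pump gene SSU1 by 1.81 ± 0.09. MPC3, a subunit of the mitochondrial pyruvate carrier, read 11.49, 11.30 and 11.59 and then 9.07, 9.03 and 8.83, beside 10.53 (-2.48 ± 0.10). ANB1 read 11.10, 10.95 and 11.08 and then 9.17, 9.22 and 9.16, beside 11.17 (-1.86 ± 0.06). In these last genes the 40 min arrays lay clearly below both other groups. TIR1, a cell wall mannoprotein of cold and low-oxygen growth, fell by 1.55 ± 0.08, and AQY1, a water channel, fell by 1.49 ± 0.11.

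In the remaining lists the shares can be set beside the 9.12% of all genes that rose and the 6.96% that fell. Of 43 cell wall genes 5 rose (11.6%) and 4 fell (9.3%), and PST1 and CWP1, raised by heat, kept 100% and 85.8% of their change. Of 27 ergosterol genes 2 rose (7.41%) and 1 fell (3.7%). ERG3, the sterol desaturase, came back to -0.01 from 25 °C, CYB5, its electron donor, rose by 2.69 ± 0.06, and ECM22, an activator of sterol genes, fell by 1.43 ± 0.05. Of 33 iron and copper genes 5 fell and 1 rose (3.03%). TIS11, which promotes decay of iron-dependent messages, fell by 2.49 ± 0.11 to -0.93 from 25 °C, while FIT2, a mannoprotein that holds iron, kept 104%. FET4, a low-affinity iron transporter, stayed lowered, at 9.73, 9.73 and 9.69 and then 9.42, 9.53 and 9.42. Those groups did not overlap, and the difference was -0.26 ± 0.22 (adjusted p = 0.267), with a standard error drawn from all 24 arrays. Of 25 phosphate and zinc genes 3 rose (12%) and 0 fell, and the zinc transporter gene ZRT1, at -1.41 from 25 °C at 15 min, differed by -0.07 ± 0.05.

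Of 27 mating and a-cell genes 3 rose (11.1%) and 0 fell, or 2 and 0 with all 45 arrays in the fit, among them STE12, the pheromone response activator, by 1.47 ± 0.07, and FUS3, its kinase, by 1.29 ± 0.06. AGA1, an agglutinin subunit, kept 67.6% of its fall. Of 34 sulfur genes 3 rose (8.82%) and 1 fell (2.94%), the latter being MET28, a cofactor of sulfur gene activation (-1.59 ± 0.08). Of 30 meiosis genes 1 rose (3.33%) and 3 fell (10%), the largest falls being SGA1, a sporulation glucoamylase, at -2.54 ± 0.09, and RIM4, an RNA-binding regulator, at -2.12 ± 0.11. Of 30 messenger RNA decay genes 2 fell (6.67%), and EDC2, an activator of decapping, did so by 1.80 ± 0.05. Of 23 genes of G2, mitosis and its exit 2 rose and 2 fell (8.7% each), and with all 45 arrays in the fit 0 rose and 2 fell.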

How the data were processed

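The arrays were made from 150 ng of total RNA labelled with biotin through the 3′ end kit, per the labels. The deposited table holds log2 intensities, which the authors summarised with RMA through affy, per the submitters' processing notes (versions and genome build: not given in the sources used here). Symbols came from the platform annotation, updated through the R64 gene table (12 changed). Of 5900 probe sets 137 were controls and 265 others had no symbol. The brightest probe set stood for each of 47 genes with several.

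Groups and replicate numbers came from the titles. Group means were fitted with limma 3.58.1 (R 4.3.3; lmFit and eBayes) to the 24 arrays of batch A863 in 8 groups (16 residual and 4 prior degrees of freedom). All tests are two-sided, and p-values were adjusted by Benjamini-Hochberg over 5449 genes. The floor of 5.48 is the level under which 95% of readings of 29 probe sets with no target in this strain lie. No gene was removed for low signal. The number of arrays limits the precision, and 0 pairs of arrays were identical. On simulated data for 40 minus 15 min over 5449 genes, 100 of 100 genes changed by 1.5 and 100 of 100 changed by 3 were recovered, with 0 false calls. The noise was normal and independent between arrays, and the other genes had no difference, so the 2-fold minimum left little room for false calls. Sizes near the limit of 1 were not simulated.

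The comparison, the classes, the 39 gene lists and the alternatives were chosen with earlier results of these data known. Named genes had standard names and were the 12 largest rises and falls, up to 8 per class with the largest 15 min change, up to 4 called and 3 uncalled members per list, all members of lists of up to 14 genes, and a fixed set of heat and marker genes. Promoter sequences were not used here. Alternatives covered the arrays fitted, prior variance, scaling, a floor filter, array weights, probe set choice, the call rule, a replicate block, a 10 min peak, a narrower limit for undone changes, a 4-fold limit added later, and each array left out. Same-numbered arrays did not deviate together (correlations of -0.16 to 0.12).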

Additional observations from a re-analysis of the deposited data

Results flagged for a closer look

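Some probe sets outside the gene table were also called. Of the 5449 genes, 7.08% were called higher and 7.21% lower at 40 min than at 25 °C. At 15 min these shares were 15.3% and 14.3%, and between the times 9.12% rose and 6.96% fell. Of 265 probe sets without a gene symbol, 30 were called higher at 40 min than at 25 °C and 7 lower by limma, while 56 were higher and 19 lower at 15 min. Whether they differ from the genes in this was not tested. Between 15 and 40 min 9 of them rose and 25 fell. Of 137 control probe sets, 3 were called higher at 40 min than at 25 °C and 0 lower, against 7 and 0 at 15 min, and 3 fell between these times.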

How the results depend on the processing

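The counts of 497 risen and 379 fallen genes did not move by over 1.5 times under any alternative that kept the 2-fold minimum. Leaving out each array in turn gave 479 to 497 and 365 to 390. With the replicate number as a block the counts were 497 and 379, and no other count changed by over 1.5 times. The 25 °C, 15 and 40 min arrays do not bear out such a pairing, and the other arrays of the fit were not checked for it. Fitting all 45 arrays left the 40 minus 15 min differences as they were and changed the estimate of spread. With all 45 arrays 449 rose and 333 fell, all among the genes called here, 224 were called below 25 °C at 40 min, and lowered and extended genes numbered 2. Cyclic loess gave 2 lowered genes that overshot and 2 that were extended, and moved the median of all genes from -0.049 to 0.016. With no minimum fold 1957 rose and 2359 fell, 2524 and 2222 were called at 15 min, 2118 and 2273 at 40 min, raised genes were undone in 1314, partly undone in 272, overshot in 266 and extended in 211 cases, lowered genes were undone in 1170, overshot in 135 and extended in 238, and late changes numbered 158 and 269. Tested against a 2-fold difference, 245 were below 25 °C at 40 min, 124 raised genes were undone, 209 lowered genes stayed within 2-fold, 2 were extended and 33 fell late. With the peak taken at 10 min, raised genes overshot in 5 and were extended in 0 cases, lowered genes in 0 and 1, and 72 rose late. With undone meaning within 0.58 of 25 °C, 137 lowered genes were undone. At a 4-fold limit, chosen after seeing the data, 57 raised and 111 lowered genes were undone, 74 and 31 stayed within 2-fold, and 0 were overshot or extended. Differences near the floor of 5.48 (14 risen genes at 15 min, 12 fallen genes at 40 min) or near the highest levels may be understated. Where a count moved, the cause was not tested.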
